A study of Oryza sativa Indica Group with 8 samples.

Results

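The genes described here are the 7 rice genes NAS1, NAS2, NAS3, NAAT1, IRT1, YSL15 and NRAMP5, which serve the acquisition of iron and manganese by roots. They were chosen by name, and each was taken at the probe set that the array's probe-to-gene annotation assigns to it. All 7 were measured, out of 17905 genes with a probe set of their own. Each had exactly 1 probe set, and 0 of these were shared with another gene. By role they fell into 4 genes of phytosiderophore synthesis (NAS1, NAS2, NAS3 and NAAT1) and 3 genes of metal uptake (IRT1, YSL15 and NRAMP5).

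Root RNA of 2 indica rice cultivars was hybridised to an Affymetrix rice genome array, a chip on which each transcript is read by a set of short probes. IR20 is labelled as a shallow-rooted, semi-dwarf, drought-susceptible cultivar, and Nootripathu as a deep-rooted, drought-tolerant landrace. Each cultivar had 2 arrays of control roots and 2 arrays of stressed roots, 8 in all. Every plant had a 1 m pipe to itself under greenhouse conditions, and the stressed plants received no water from 40 days after sowing until their leaves rolled and dried. Harvest differed between treatments, because control roots were washed free of soil with water and stressed roots were only tapped. Drought and handling therefore cannot be told apart in any comparison of stressed with control roots. Stress ended at a leaf symptom, so its length, its severity and plant age at harvest may differ between the cultivars. These cannot be told apart from cultivar where stressed roots are compared. The labels call the replicates biological and do not say whether plants were pooled, so p-values measure the spread between these arrays. A single array, IR20 stress replicate 2, stood apart in the quality controls. The 3′ ends of the spike-in transcripts exceeded their 5′ ends by 5.32 (log2) on it and by 2.08 to 2.58 on the other 7 arrays. The log2 signal of the 3′ ends was higher on the stressed arrays, at 10.51 to 11.09 against 9.96 to 10.23 on control arrays.

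Rice takes up iron in several ways. Like other grasses it makes phytosiderophores, small molecules that leave the root, bind ferric iron in the soil and are taken back as a complex. Nicotianamine synthases (NAS) join S-adenosylmethionine into nicotianamine, nicotianamine aminotransferase (NAAT) converts that into the precursor of deoxymugineic acid, and YSL15 carries the iron complex of deoxymugineic acid into the root. Rice also takes up ferrous iron directly through IRT1, which suits flooded soil. NRAMP5 is the main importer of manganese, and also of cadmium, in rice roots. In iron-deficient rice roots NAS1, NAS2 and NAS3 are known to be induced, whereas in iron-deficient leaves NAS3 is known to be suppressed.

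Values are RMA signals on the log2 scale, and a difference of 1 is a change of 2-fold in signal. Each difference is given with its standard error (SE) and with limma's p adjusted by the Benjamini-Hochberg method over all 57258 probe sets tested, with n = 2 arrays per group. A gene passed at an adjusted p under 0.05. The signals of a cultivar's stressed and control arrays were compared first. Under drought 6 of the 7 genes fell in each cultivar and 1, NAS3, rose in each, although in IR20 the direction of NAS3 flipped when arrays were scaled to the spike-in transcripts. Passing was common on these arrays: in IR20 38.1% of probe sets passed, or 61.3% of the genes at 1 probe set each, and in Nootripathu 31.9% of probe sets, or 54.4% of the genes. Falls that passed made up 32.3% of genes in IR20 and 23.2% in Nootripathu, and rises 28.9% and 31.1%. Stressed and control arrays of all 7 genes did not overlap in either cultivar, as was so in 81.2% of genes in IR20 and 85.1% in Nootripathu. The median of the 6 genes that fell was −5.74 in IR20 and −3.62 in Nootripathu, beside medians of 0.0 and 0.08 over all genes.

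**Figure D1:**
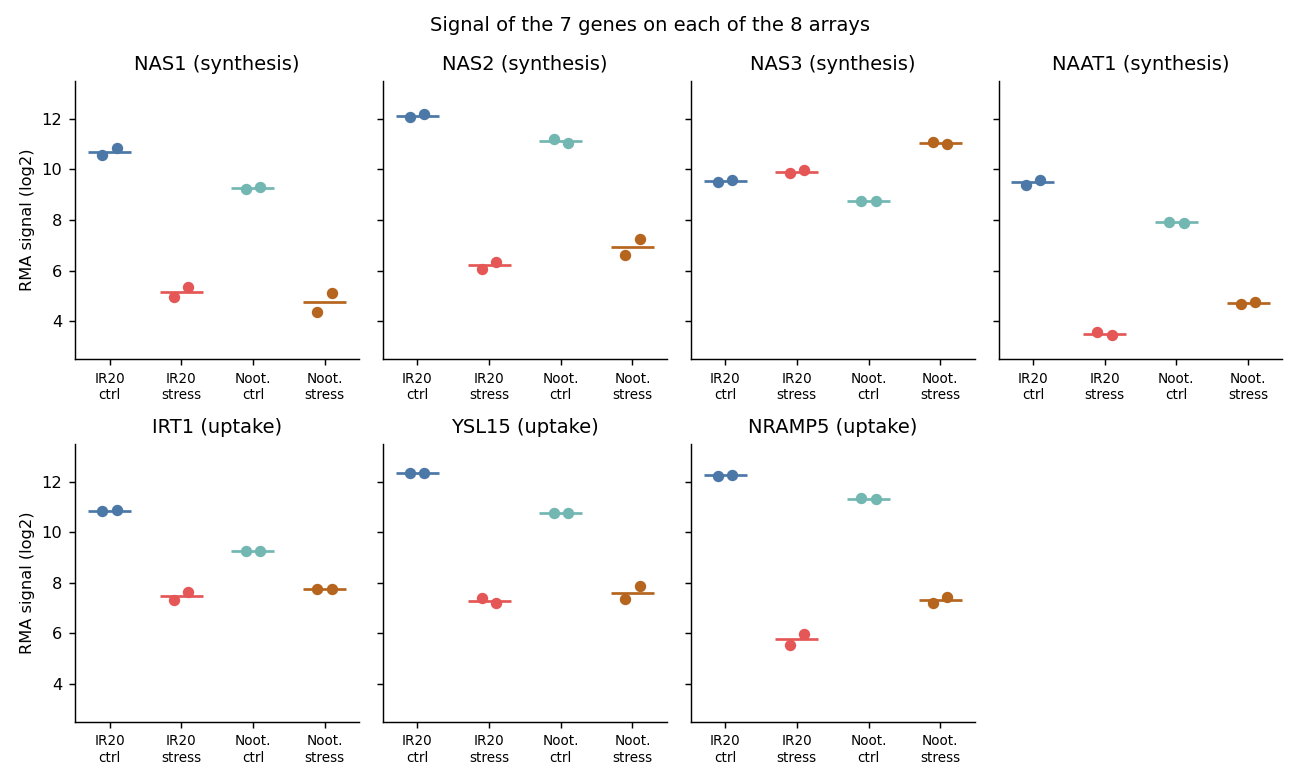
RMA signal (log2, vertical axis) of each gene on each of the 8 arrays, by group (horizontal axis); points are arrays and lines are group means of 2 arrays. In NAS1, NAS2, NAAT1, IRT1, YSL15 and NRAMP5 every stressed array lies below every control array of both cultivars, and in NAS3 every stressed array lies above.

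Among the genes of phytosiderophore synthesis, NAS2 (LOC4332607) gave signals of 12.06 and 12.2 in IR20 control, 6.08 and 6.33 in IR20 stress, 11.22 and 11.05 in Nootripathu control and 6.6 and 7.24 in Nootripathu stress. The control arrays of both cultivars were high and the stressed arrays low, with no overlap between any pair of groups. NAS2 fell by 5.92 ± 0.20 in IR20 (SE, n = 2 arrays per group, limma adjusted p = 3.96e-07) and by 4.21 ± 0.20 in Nootripathu (limma adjusted p = 2.82e-06). The stressed signal was 1.65% of the control signal in IR20 and 5.39% in Nootripathu.

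NAS1 (LOC4332608), a nicotianamine synthase that lies directly next to NAS2 with 0 genes between them in the RefSeq table, also fell in both cultivars. Its signals were 10.58 and 10.85 in IR20 control, 4.96 and 5.35 in IR20 stress, 9.22 and 9.3 in Nootripathu control and 4.36 and 5.13 in Nootripathu stress. Stressed and control arrays did not overlap, whereas the stressed arrays of the cultivars did. The fall was 47.1-fold in IR20 (difference −5.56 ± 0.25, limma adjusted p = 1.2e-06) and 22.9-fold in Nootripathu (−4.52 ± 0.25, limma adjusted p = 4.9e-06). Stressed NAS1 signals lay above 43.7% to 50.6% of the probe sets of their array in IR20 and 33.0% to 47.5% in Nootripathu. Background may therefore limit both falls and the difference between them. NAS1 and NAS2 are close copies of one another, so signal of either gene may be read by the probes of the other, and their values are uncertain to that degree. No probe sequences were used here.

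NAAT1 (LOC9267778), the aminotransferase of the next step, had signals of 9.39 and 9.59 in IR20 control and 3.55 and 3.47 in IR20 stress. In Nootripathu the control arrays read 7.93 and 7.9 and the stressed arrays 4.66 and 4.75. Stressed IR20 was lowest of the 4 groups, and no groups overlapped. The fall was 63.3-fold in IR20 (−5.98 ± 0.11, limma adjusted p = 8.59e-08) and 9.23-fold in Nootripathu (−3.21 ± 0.11, limma adjusted p = 7.45e-07). In stressed IR20 the NAAT1 signal lay above that of only 9.6% to 11.7% of the probe sets of its array, near the lowest signals measured (2.53 to 2.64). The background of the array therefore limits the fall that could be measured in IR20.

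NAS3 (LOC4344361), the third nicotianamine synthase, moved the other way. Its signals were 9.5 and 9.58 in IR20 control, 9.85 and 9.99 in IR20 stress, 8.75 and 8.76 in Nootripathu control and 11.09 and 11.01 in Nootripathu stress. Stressed arrays were above control arrays in each cultivar, narrowly in IR20, where the gap between the groups was 0.26, and by 2.26 in Nootripathu. NAS3 rose 4.92-fold in Nootripathu (2.30 ± 0.10, limma adjusted p = 1.89e-06). In IR20 it rose 1.3-fold (0.38 ± 0.10, limma adjusted p = 0.0196), a call that was lost without IR20 stress replicate 2 (0.31, adjusted p = 0.0575) or without either IR20 control array (0.33, adjusted p = 0.0979, without replicate 1 and 0.42, adjusted p = 0.0544, without replicate 2). With the IR20 arrays fitted alone the difference of NAS3 had an adjusted p of 0.0778.

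**Figure D2:**
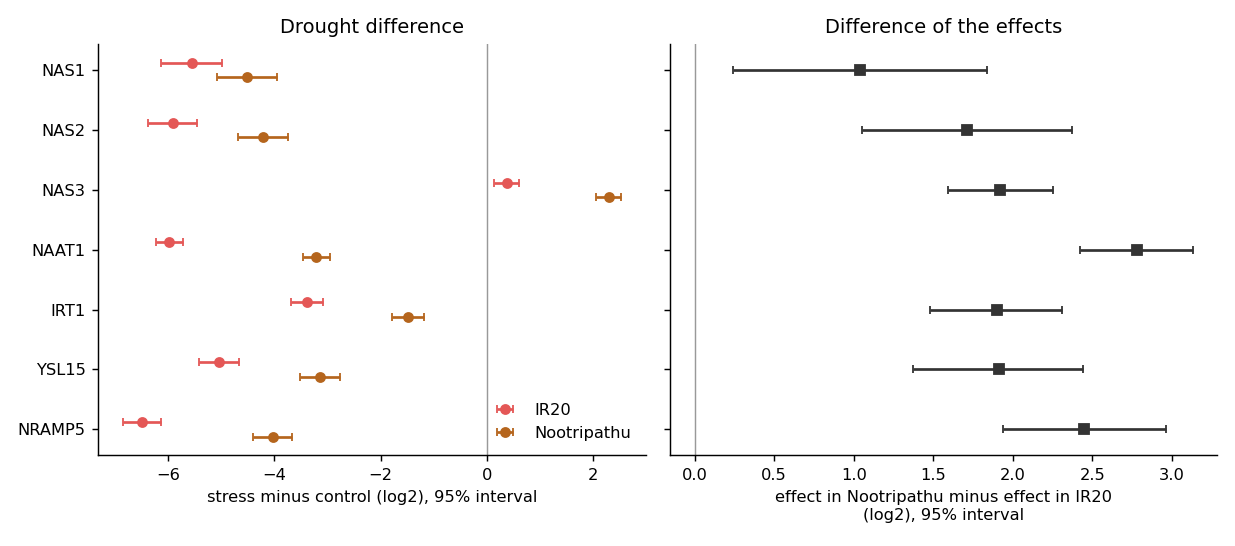
Left, the difference between stressed and control roots (log2, horizontal axis) for each gene in IR20 and in Nootripathu; right, the effect in Nootripathu minus the effect in IR20. Points are limma estimates from 2 arrays per group and bars are 95% intervals, unadjusted; the 6 falls are larger in IR20 and the rise of NAS3, which flips in IR20 under spike-in scaling, is larger in Nootripathu, and the interval of NAS1 at right runs from 0.24 to 1.84.

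The genes of metal uptake all fell under drought, NRAMP5 most. NRAMP5 (LOC4342859) had signals of 12.23 and 12.28 in IR20 control, 5.54 and 5.99 in IR20 stress, 11.35 and 11.32 in Nootripathu control and 7.18 and 7.42 in Nootripathu stress. The groups did not overlap, and stressed IR20 was the lowest. The stressed signal was 1.11% of the control signal in IR20 (−6.49 ± 0.16, limma adjusted p = 1.29e-07) and 6.1% in Nootripathu (−4.03 ± 0.16, limma adjusted p = 1.19e-06). Counted from the lowest difference of all 57258 probe sets, NRAMP5 held rank 33 in IR20 and rank 149 in Nootripathu. Its signals in stressed IR20 lay above 52.9% to 58.9% of the probe sets of their array. Background may therefore limit that fall and the differences from Nootripathu that use it.

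YSL15 (LOC9268232), the importer of the iron and deoxymugineic acid complex, gave 12.34 on each IR20 control array and 7.38 and 7.21 under stress. In Nootripathu it gave 10.76 and 10.74 in control roots and 7.35 and 7.87 under stress. Stressed arrays of the cultivars overlapped, while all control arrays were higher. YSL15 fell 33.1-fold in IR20 (−5.05 ± 0.16, limma adjusted p = 3.17e-07) and 8.82-fold in Nootripathu (−3.14 ± 0.16, limma adjusted p = 4.07e-06).

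IRT1 (LOC4333669), the ferrous iron transporter, had the smallest falls of the 6 genes in each cultivar. Its signals were 10.82 and 10.89 in IR20 control, 7.3 and 7.64 in IR20 stress, 9.26 and 9.24 in Nootripathu control and 7.77 on each Nootripathu stress array. The stressed groups lay close together, with a gap of 0.12, and both were below the controls. The stressed signal of IRT1 was 9.59% of the control signal in IR20 (−3.38 ± 0.13, limma adjusted p = 5.85e-07) and 35.8% in Nootripathu (−1.48 ± 0.13, limma adjusted p = 5.54e-05). IRT2, a related transporter gene with 2 genes between it and IRT1, was looked at as its neighbour after its values were seen. Its signals were 5.79 and 5.5 in IR20 control and between 3.48 and 3.88 on the other arrays. IRT2 fell by 1.8 ± 0.14 in IR20 (limma adjusted p = 2.54e-05) and differed by 0.11 ± 0.14 in Nootripathu (limma adjusted p = 0.619; −0.78 and adjusted p = 0.0201 under spike-in scaling).

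By role, the synthesis genes had a median drought difference of −5.74 and the uptake genes of −5.05 in IR20, and −3.71 and −3.14 in Nootripathu. The synthesis medians rest on 4 genes that include the rising NAS3. Across the 8 arrays Pearson's r was 0.945 to 0.993 in the 15 pairs that leave out NAS3 and −0.746 to −0.545 in the 6 pairs with it. These correlations describe 4 groups more than 8 independent points, since stressed and control arrays stand apart in each gene.

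**Figure D3:**
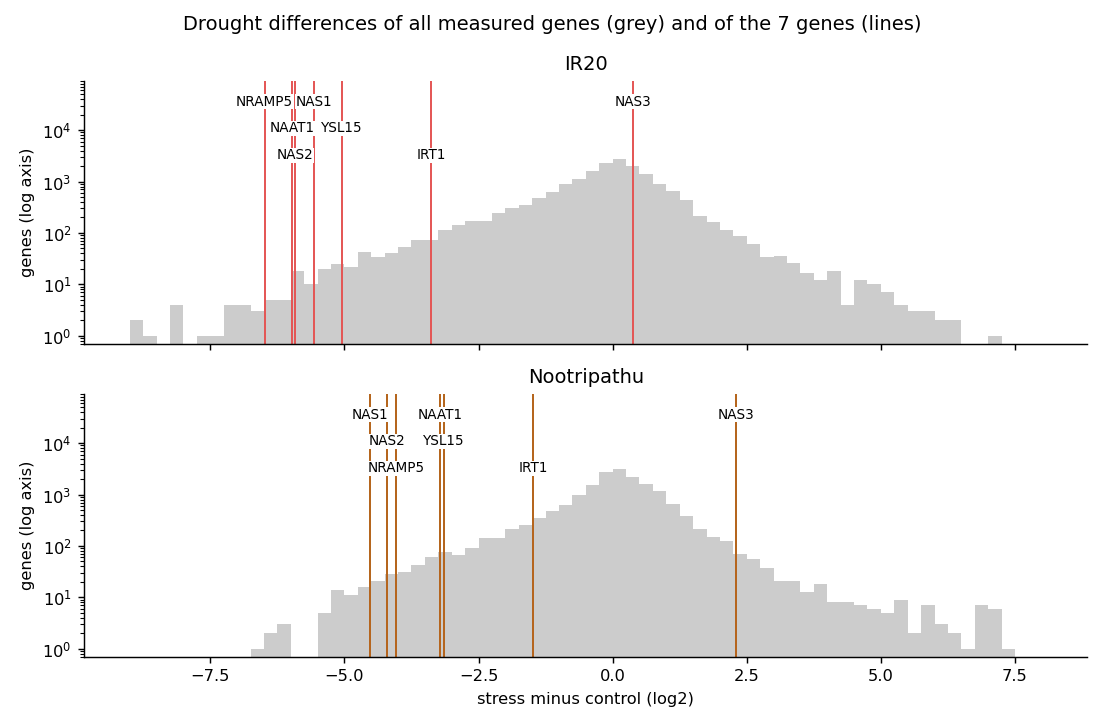
Number of genes (log axis) by drought difference (log2, horizontal axis, bins of 0.25) for all 17905 genes, in IR20 above and Nootripathu below; vertical lines mark the 7 genes. In IR20 5 lines lie at or below −5.05 and NAS3 sits near the centre, and in Nootripathu NAS3 lies at 2.3, on the upper flank.

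Genes listed for root cell types moved in the same comparisons. NRAMP5 is known to lie in exodermis and endodermis. Of 5 measured genes linked to these layers (LSI1, LSI2, CASP1, SCR1 and SHR1) all fell in both cultivars, with medians of −2.32 in IR20 and −1.38 in Nootripathu. Whether the RNA of each of them, SHR1 included, lies in these layers was not tested. Their mean signal was 10.23 and 10.29 in IR20 control, 7.12 and 7.3 in IR20 stress, 9.7 and 9.71 in Nootripathu control and 7.85 and 7.98 in Nootripathu stress. LSI2 fell by 7.0 ± 0.18 in IR20 (limma adjusted p = 1.58e-07), while LSI1, an influx transporter of silicon in the same cells, fell by 0.78 ± 0.09 (limma adjusted p = 0.00026) and remained at 13.72 and 13.77. In IR20 control LSI1 gave 14.55 and 14.5, near the highest signals of those arrays (15 and 14.9), so its fall may be under-read. A list for the root tip and dividing cells held 9 measured genes. These were CYCB1-1, CYCB1-3, CYCB2-1, CYCB2-2, CDKB2-1, MCM2, MCM5, PCNA and QHB. All 9 fell in IR20, and in Nootripathu 2 rose and 3 fell. The mean signal of these 9 genes was 8.06 and 8.17 in IR20 control, 4.98 and 5.41 in IR20 stress, 6.38 and 6.26 in Nootripathu control and 6.04 and 6.22 in Nootripathu stress. The difference of the drought effects, Nootripathu minus IR20, passed as higher in 8 of these 9 genes, all but QHB (median 3.06). It also passed as higher in 2 of the 5 genes linked to exodermis and endodermis (median 0.94). In control roots 8 of the 9 and 3 of the 5 were lower in Nootripathu, and in stressed roots 5 of the 9 and 2 of the 5 were higher. In stressed IR20 CYCB2-2 gave 3.35 and 4.22 and CYCB1-3 gave 3.99 and 4.1, so background limits their falls and their differences between the cultivars. SCR1, at 4.24 and 4.82 there, may be limited too. The part of the marker genes in the results was not tested, and in whole roots fewer cells of a type and less RNA per cell cannot be told apart. Of 7 markers of photosynthetic tissue 1 rose and 0 fell in IR20, and 0 rose and 2 fell in Nootripathu, PETC by 1.95 ± 0.15 (limma adjusted p = 3.52e-05) and PSAH by 1.43 ± 0.15 (limma adjusted p = 0.000173). Their mean signal was 5.76 to 5.95 on the IR20 arrays, 5.83 and 5.78 in Nootripathu control and 5.34 and 5.38 in Nootripathu stress. Apart from LSI1 and LSI2, the marker genes were not examined under spike-in scaling, and small rises among them may not hold under it.

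The cultivars were compared next, first by whether the difference between stressed and control roots was of a different size in them. Any difference in the length or severity of stress between the cultivars is part of these values. The difference of the effects, Nootripathu minus IR20, was positive in all 7 genes, with a median of 1.91 beside 0.08 over all genes, and 6 of the 7 passed. It passed in 19.6% of probe sets and in 32.9% of genes, and in 21.2% of genes with a positive sign. In 5 genes the positive sign stands for a smaller fall in Nootripathu. The value was 2.78 ± 0.15 for NAAT1 (limma adjusted p = 3.37e-05), 2.45 ± 0.22 for NRAMP5 (limma adjusted p = 0.000249), 1.91 ± 0.23 for YSL15 (limma adjusted p = 0.00108), 1.90 ± 0.18 for IRT1 (limma adjusted p = 0.000317) and 1.71 ± 0.29 for NAS2 (limma adjusted p = 0.00497). In NAS3 it stands for a larger rise in Nootripathu, by 1.92 ± 0.14 (limma adjusted p = 0.000106). NAS1, at 1.04 ± 0.35, did not pass (limma adjusted p = 0.0741). Without Nootripathu stress replicate 1, the lower of its pair, the value of NAS1 was 1.42 and passed (limma adjusted p = 0.0148). The NAAT1 value includes the IR20 signal that lay near background.

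In control roots all 7 genes gave less signal in Nootripathu than in IR20, and no gene's groups overlapped. The differences ran from −1.60 to −0.79 with a median of −1.45, beside a median of −0.08 over all genes. Of all probe sets 19.3% passed, as did 35.4% of genes, and 22.8% of genes passed as lower in Nootripathu. In 48.0% of genes both Nootripathu control arrays lay below both of IR20. Whether the probes match the sequences of both cultivars equally was not tested. IRT1 was 3.04-fold lower in Nootripathu (−1.60 ± 0.13, limma adjusted p = 7.83e-05), YSL15 3.01-fold (−1.59 ± 0.16, limma adjusted p = 0.000307) and NAAT1 2.98-fold (−1.57 ± 0.11, limma adjusted p = 3.69e-05). NAS1 was 2.73-fold lower (−1.45 ± 0.25, limma adjusted p = 0.0042), and NAS2, NRAMP5 and NAS3 were 1.99-fold, 1.89-fold and 1.73-fold lower. The NAS2 call (−0.99 ± 0.20, limma adjusted p = 0.0103) was lost without IR20 control replicate 2 (adjusted p = 0.0773) or Nootripathu control replicate 2 (adjusted p = 0.0764). With arrays scaled to the spike-in transcripts NRAMP5 (−0.72, adjusted p = 0.19), NAS2 (−0.79, adjusted p = 0.118) and NAS3 (−0.59, adjusted p = 0.366) did not pass.

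In stressed roots 4 of the 7 genes were higher in Nootripathu, against 0 in control roots. In this comparison 22.0% of probe sets and 34.8% of genes passed, and 18.1% of genes passed as higher in Nootripathu. Groups did not overlap in 5 of the 7 genes and in 69.9% of all genes. The excess over IR20 was largest in NRAMP5, at 1.53 ± 0.16 (limma adjusted p = 0.000329), followed by NAAT1 at 1.20 ± 0.11 (limma adjusted p = 0.000166), NAS3 at 1.14 ± 0.10 (limma adjusted p = 0.000159) and NAS2 at 0.71 ± 0.20 (limma adjusted p = 0.0394). The call of NAS2 was lost when any single array was left out, other than Nootripathu stress replicate 1, and the value was 0.40 (adjusted p = 0.175) without Nootripathu stress replicate 2. YSL15 (0.32 ± 0.16, 95% interval −0.06 to 0.70, limma adjusted p = 0.21), IRT1 (0.30 ± 0.13, 95% interval 0.0 to 0.59, limma adjusted p = 0.138) and NAS1 (−0.41 ± 0.25, 95% interval −0.98 to 0.16, limma adjusted p = 0.278) did not pass. Of these, IRT1 passed without IR20 stress replicate 2 (0.47, adjusted p = 0.018), YSL15 without Nootripathu stress replicate 1 (0.58, adjusted p = 0.0352) and NAS1 without Nootripathu stress replicate 2 (−0.79, adjusted p = 0.0462). The comparisons of control and of stressed roots share their arrays with the drought comparisons, so the values of a gene in them are not independent.

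Over the 4 groups, NAS2, NAAT1, IRT1, YSL15 and NRAMP5 had 1 order of levels: stressed IR20 lowest, then stressed Nootripathu, control Nootripathu and control IR20. The stressed groups of YSL15 overlapped, and those of IRT1 and NAS2 were apart by 0.12 and 0.27. NAS1 had the stressed groups in the other order, with overlapping arrays. For NAS3 the order was control Nootripathu, control IR20, stressed IR20 and stressed Nootripathu, with gaps of 0.75, 0.26 and 1.03 between neighbouring groups.

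Other genes of the pathway were taken from lists of names. S-adenosylmethionine, the substrate of nicotianamine synthases, is supplied by the methionine cycle, and of 5 measured genes of that cycle 2 rose in each cultivar and 0 passed as lower, a count that did not hold under every alternative. The S-adenosylmethionine synthetase genes SAM1 and SAM2 had signals between 14.33 and 14.46 and between 13.2 and 13.8. Neither passed under drought in either cultivar in the main fit. Under spike-in scaling the median of all probe sets was itself −0.51 in IR20 and −0.89 in Nootripathu. With that scaling 14721 of 57258 probe sets passed as lower in IR20 and 42515 in Nootripathu. SAM1 (−0.85) and SAM2 (−0.78) were among those lower in Nootripathu, both above its shifted median. ARD4, an acireductone dioxygenase gene, rose by 0.58 ± 0.13 in IR20 (limma adjusted p = 0.00982) and by 0.77 ± 0.13 in Nootripathu (limma adjusted p = 0.00257), and its direction flipped under spike-in scaling (−0.03 and −0.12). MTK1, a methylthioribose kinase gene, rose by 0.44 ± 0.10 in IR20 (limma adjusted p = 0.00958), which flipped to −0.17 under that scaling, and in Nootripathu the scaling gave −1.03 (adjusted p = 0.00318). Without IR20 control replicate 2 the IR20 calls of ARD4 (adjusted p = 0.0516) and MTK1 (adjusted p = 0.0592) were lost. IDI2, another gene of that cycle, rose by 0.94 ± 0.17 in Nootripathu (limma adjusted p = 0.00315) and was at 0.05 under spike-in scaling (adjusted p = 0.889). In IR20 the difference of IDI2 was −0.26 ± 0.17 (limma adjusted p = 0.27), and it passed as lower under spike-in scaling (−0.87, adjusted p = 0.024) and without IR20 stress replicate 2 (−0.52, adjusted p = 0.0155).

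Of the regulators of iron genes, IRO3 and IDEF1 were measured, and 0 of these 2 passed in IR20. Other regulators that were listed, IRO2 among them, were not among the genes matched by name and are not covered here. IRO3 (LOC4332972) encodes a basic helix-loop-helix protein known as a negative regulator of the iron deficiency response. Its signals were 9.67 and 9.79 in IR20 control, 9.8 and 9.95 in IR20 stress, 8.76 and 8.77 in Nootripathu control and 9.56 on each Nootripathu stress array. The control arrays of Nootripathu stood below all others. IRO3 rose by 0.79 ± 0.10 in Nootripathu (limma adjusted p = 0.000524), a direction that flipped to −0.1 under spike-in scaling (adjusted p = 0.774). IDEF1, a transcription factor that promotes the response to iron deficiency, lay between 8.18 and 8.67 on all arrays and did not pass. Its difference in Nootripathu (−0.36 ± 0.13, limma adjusted p = 0.0674) lay near the threshold and passed as lower under 7 alternatives, with adjusted p from 0.024 to 0.048 in 6 of them. The other, spike-in scaling, gave −1.26 (adjusted p = 0.000372), beside a median of −0.89 over all probe sets.

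Among 35 other measured genes of iron, manganese, zinc and other metal transport, 8 rose and 15 fell in IR20, and 6 rose and 8 fell in Nootripathu. Their median was −0.24 in IR20 and −0.08 in Nootripathu, beside −5.05 and −3.14 for the uptake genes above. The shares that passed, 65.7% and 40%, lay near or below those of all genes. In IR20 the largest falls were those of ZIP1 (−5.08 ± 0.13, limma adjusted p = 1.47e-07), NRAMP1 (−3.5 ± 0.10, limma adjusted p = 2.39e-07) and YSL12 (−3.19 ± 0.16, limma adjusted p = 2.53e-06). In Nootripathu they were those of YSL12 (−3.16 ± 0.16, limma adjusted p = 3.93e-06), ZIP1 (−2.85 ± 0.13, limma adjusted p = 2.13e-06) and YSL13 (−2.03 ± 0.10, limma adjusted p = 2.83e-06). In stressed IR20 ZIP1 gave 4.16 and 3.96, above only 22.2% to 27.1% of the probe sets of its array, so background limits its fall there and its difference between the cultivars. ZIP1 belongs to the family of zinc and iron transporters that includes IRT1, and YSL12 and YSL13 to that of YSL15.

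NRAMP1 (LOC4342862), an iron and cadmium transporter of the same family as NRAMP5 with 5 genes between them in the RefSeq table, fell in IR20 and rose in Nootripathu, where its direction flipped under spike-in scaling (−0.1, adjusted p = 0.768). It gave 10.69 and 10.76 in IR20 control, 7.25 and 7.2 in IR20 stress, 7.0 and 7.14 in Nootripathu control and 7.8 and 7.92 in Nootripathu stress. Only control IR20 had a high signal. The rise in Nootripathu was 0.79 ± 0.10 (limma adjusted p = 0.000591), and the difference of the effects was 4.29 ± 0.15 (limma adjusted p = 7.41e-06). In control roots it was lower in Nootripathu (−3.66 ± 0.10, limma adjusted p = 4.78e-07).

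YSL16, which transports metal complexes of nicotianamine, rose in IR20 and fell in Nootripathu. Its signals were 8.99 and 8.79 in IR20 control, 10.28 and 9.87 in IR20 stress, 9.85 and 9.79 in Nootripathu control and 8.96 and 8.98 in Nootripathu stress. It rose by 1.18 ± 0.15 in IR20 (limma adjusted p = 0.000343; 0.58 and adjusted p = 0.144 under spike-in scaling) and fell by 0.85 ± 0.15 in Nootripathu (limma adjusted p = 0.00253). The largest rises in both cultivars were those of HMA2 and ZIP4, which act in zinc transport. HMA2 rose by 1.90 ± 0.41 in IR20 (limma adjusted p = 0.00716), a call lost without IR20 control replicate 2 (1.5, adjusted p = 0.0592), and by 2.87 ± 0.41 in Nootripathu (limma adjusted p = 0.00093). ZIP4 rose by 1.81 ± 0.10 (limma adjusted p = 3.81e-06) and by 2.02 ± 0.10 (limma adjusted p = 3.38e-06).

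**Figure D4:**
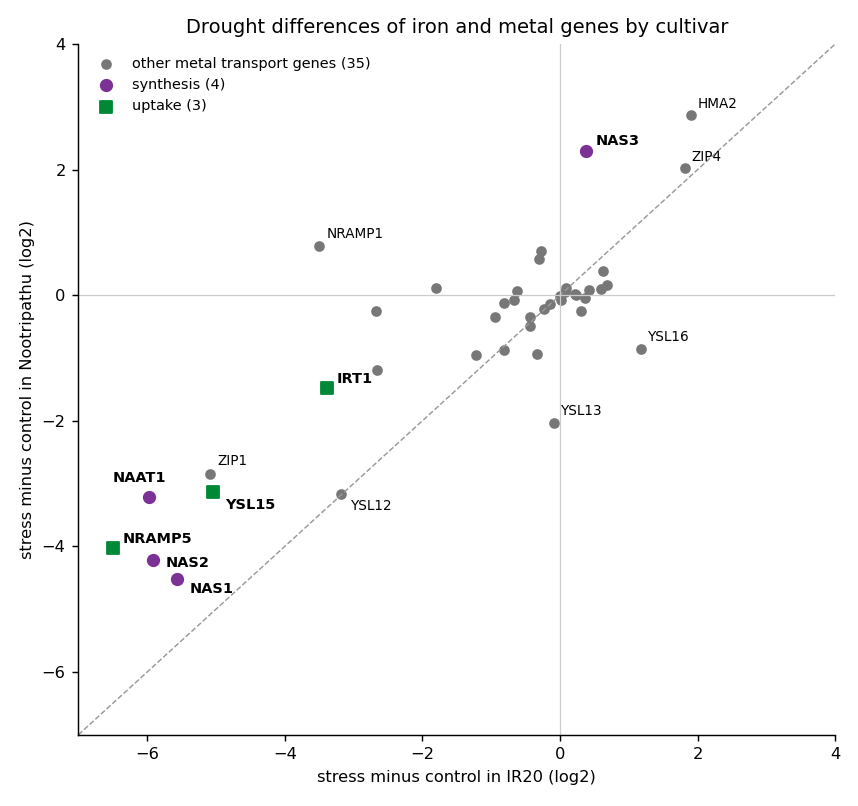
Drought difference (log2) in IR20 (horizontal axis) against that in Nootripathu (vertical axis) for the 4 synthesis genes, the 3 uptake genes and 35 other metal transport genes; the dashed line marks equal differences and each point is 1 gene. The medians of the 35 genes are −0.24 and −0.08, 6 of the 7 genes lie at the lower left above the dashed line, and NAS3, HMA2 and ZIP4 lie at the upper right.

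The genes with the most similar pattern were sought by Pearson's r over the 8 arrays, among 438 named genes whose group means spanned at least 2 on the log2 scale. AT5 (LOC4338283) and LOX1.1 (LOC4334049), a lipoxygenase gene, came first and second for the average of the synthesis genes, with r of 0.997 and 0.996, and for that of the uptake genes, with r of 0.998 and 0.996. The synthesis average includes NAS3, which ran against it: r of NAS3 was −0.746 with NAS1, −0.7 with NAS2 and −0.607 with NAAT1. BGLU6 and OPR10 were also among the 5 nearest to each average, RAC7 to that of synthesis and DRR1 to that of uptake, with r between 0.991 and 0.993. Each of these 6 genes fell in both cultivars, AT5 by 3.86 in IR20 (limma adjusted p = 2.19e-07) and by 2.31 in Nootripathu (limma adjusted p = 2.99e-06). With 4 groups of arrays a high r says only that group means run in parallel.

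Without IR20 stress replicate 2 the 6 falls in IR20 ran from −6.71 to −3.56 and all passed, against −6.49 to −3.38 with it. With arrays scaled to the spike-in transcripts the median of all probe sets moved to −0.51 in IR20 and −0.89 in Nootripathu, from 0.099 and −0.00092. The 6 falls then ran from −7.1 to −3.99 in IR20 and from −5.41 to −2.38 in Nootripathu, and all passed. NAS3 was at 1.4 in Nootripathu (limma adjusted p = 6.41e-05), and in IR20 its direction flipped to −0.23 and did not pass (limma adjusted p = 0.539), while above the shifted median. Under this scaling all 7 genes had 1 SE of 0.32 per comparison of groups, each array's shift being common to all probe sets, so the p-values of single genes there are not independent of one another.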

How the data were processed

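The values were deposited by the authors as RMA signals on a log2 scale, made with Affymetrix Expression Console 3.0 per the submitters' processing notes; RMA corrects background and quantile-normalises the arrays. Labelling used 2 ug of total RNA per the labels. The table held 57381 probe sets, of which 123 control probe sets were left out which left 57258 in the tests. The number of arrays, 2 per group, limits the precision.

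Of the probe sets, 22436 belonged to 1 gene in the annotation, 95 to several and 34727 to none. Genes were named through gene IDs, symbols and synonyms of the RefSeq table of assembly ASM3414082v1, and a gene with several probe sets was read at its brightest one on average. Gene positions in that table were used only for the order of neighbouring genes, and no sequences were used here.

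The 4 groups were fitted together, each with its own mean, by limma 3.58.1 under R 4.3.3 (residual degrees of freedom 4, prior degrees of freedom 3.88), with Benjamini-Hochberg adjustment over all probe sets. The fit was tested on simulated data. An exact permutation test of 2 against 2 arrays cannot go below a p of 0.333, so none was made.

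The genes, lists, tests and alternatives were chosen with earlier results of these data known. Named were all 7 genes, up to 3 largest rises and falls per pathway list and cultivar among those that passed, and the 5 genes most similar in pattern. The names TOM1, TOM2, FDH, ARD1, ARD2 and NAC4 were left out, because the table gives them to other or several genes. Ferritin genes, root hair markers, DMAS1 of the synthesis step after NAAT and genes of phytosiderophore efflux were not analysed here. Alternatives were the replicate number as a block, only the arrays compared, leaving out the lowest 40% of probe sets, median-centring, renewed quantile normalisation, a trended robust prior, scaling to the 12 probe sets for 3′ ends of spike-in transcripts, and leaving out each array. Because each gene had 1 probe set, no other probe set could be tried.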

Additional observations from a re-analysis of the deposited data

Results flagged for a closer look

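The drought effect differed between the cultivars, by limma's test of the difference itself (Nootripathu minus IR20, log2, adjusted p under 0.05) in the named genes below. Among the acquisition genes the values were 2.78 for NAAT1, 2.45 for NRAMP5, 1.92 for NAS3, 1.91 for YSL15, 1.9 for IRT1 and 1.71 for NAS2. Among the pathway genes NRAMP1 (4.29), ZIP1 (2.23, with a stressed IR20 signal near background), IDI2 (1.2) and IRO3 (0.65) had positive values. YSL16 (−2.04), YSL13 (−1.94) and MTK1 (−0.57) had negative ones. NRAMP1 and YSL16 passed in opposite directions in the cultivars; under spike-in scaling NRAMP1 in Nootripathu and YSL16 in IR20 no longer passed. The differences of MTK1, IDI2 and IRO3 did not pass under spike-in scaling (adjusted p of 0.323, 0.278 and 0.672), and those of MTK1 and IRO3 were also lost without single arrays.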

How the results depend on the processing

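Of 518 values of the 7 genes under the alternatives, 492 kept their side of the threshold, 19 no longer passed and 6 newly passed. A value counted as reversed when its sign changed and it passed in the main fit or under the alternative. That held for 1: NAS3 in IR20, at −0.23 under spike-in scaling. A change of sign where neither fit passed was counted among the 492. Under that scaling 4 of the 7 genes passed in control roots between the cultivars, against 7, and the probe sets that passed were 43988 for drought in Nootripathu (3.35% of them higher, against 54.7% of 18267), 3228 for the difference of the effects (against 11204), 4710 between cultivars in control roots (56.3% higher, against 43.4% of 11048) and 4386 in stressed roots (against 12601). For drought in IR20 the share higher was 12.2% of 16771 against 55% of 21807. Fitting only the arrays compared gave 7506 probe sets between cultivars in stressed roots. Leaving out 1 array gave 6509 to 14153 probe sets for the difference of the effects, 6415 to 14494 for control and 7266 to 14365 for stressed roots between cultivars, and 6 to 7 of the 7 genes for drought in IR20, 7 for drought in Nootripathu, 6 to 7 for the difference and in control roots, and 3 to 5 in stressed roots. The cause was not tested; leaving out an array also leaves fewer samples. Deviations of same-numbered arrays correlated weakly between groups (−0.0145 to 0.207, not above 0.1 in every pair), so the numbers were not taken as pairs; with the replicate number as a block 7 genes passed for the difference of the effects, NAS1 among them (1.04, limma adjusted p = 0.0217), 21878 probe sets passed for drought in IR20 and 18490 in Nootripathu. With a trended robust prior NAS1 also passed for the difference of the effects (adjusted p = 0.0389). The same alternatives were run on 23 other named genes after seeing the data. Of 1697 values 1571 kept their side of the threshold, with changes of sign where neither fit passed counted here. A further 81 no longer passed, 37 newly passed and 8 reversed, all 8 under spike-in scaling. These were MTK1 (−0.17) and ARD4 (−0.03) for drought in IR20, and SAM1 (−0.85), SAM2 (−0.78), ARD4 (−0.12), IRO3 (−0.1), IRT2 (−0.78) and NRAMP1 (−0.1) for drought in Nootripathu. HMA2 was higher in replicate 1 than in replicate 2 in every group, and with the replicate block its difference of the effects passed (0.97, limma adjusted p = 0.00387, against 0.283 without it). Background limits NAAT1, ZIP1, IRT2 and the markers CYCB2-2 and CYCB1-3 in stressed IR20, and IRT2 and CYCB1-3 in both Nootripathu groups. It may also limit NAS1 in the stressed roots of both cultivars, and NRAMP5 and SCR1 in stressed IR20.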
